A study of Mus musculus with 12 samples.

Results

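Nanog, the gene of a homeobox transcription factor of mouse pluripotent cells, was followed with each of its array probes through 4 conditions of embryonic stem cells. A probe was taken to measure Nanog when it was not a control and the transcript accession the array files give for it belongs to mouse Nanog, and 2 of 56605 probes met this rule. Nanog is thus 1 of 45616 genes or unnamed transcripts that the array covers. Both probes carry the same accession and were well above background on all 12 arrays, and they are called the bright probe (A_55_P2007703) and the dim probe (A_55_P2007699) here. The cells were grown in LIF with 250 nM PD173074, an inhibitor of the FGF receptors, in every group. A set of 3 arrays each came from cells given 1 uM MG132 for 30 min and then MG132 with 250 nM 4OHT for 6 h, from cells given 250 nM 4OHT for 6 h, from cells given 1 uM MG132 for 30 min and a further 6 h, and from untreated cells titled as 0 h. No vehicle control and no untreated group at 6 h is among the labels, so time and compound cannot be told apart in comparisons with untreated cells. MG132 inhibits the proteasome, and 4OHT is a tamoxifen derivative, commonly applied to activate a protein joined to a modified oestrogen receptor. The cell line and the protein that 4OHT acts on are not given in the sources used here.

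NANOG supports self-renewal of mouse embryonic stem cells and holds back their turn towards primitive endoderm. Signalling through FGF and the kinase ERK lowers Nanog transcription, while OCT4 and SOX2 bind together at its promoter and KLF factors bind nearby. NANOG protein is short-lived and is removed through the proteasome, but an array measures RNA and says nothing of the protein. In bulk samples, fewer cells with Nanog RNA and less Nanog RNA per cell cannot be told apart.

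The promoter is shown because OCT4, SOX2 and KLF genes are among the regulators described below. RefSeq lists 2 Nanog starts, and the window of the more upstream one, chr6:122707239-122707538 in GRCm38.p6 on the + strand, runs from 250 bases before the start to 50 bases after it. Capitals mark an octamer-SOX match (TTTGCAT, any base, then ACAA) and 2 KLF matches (GGGNGTGG), searched on both strands.
Nanog promoter: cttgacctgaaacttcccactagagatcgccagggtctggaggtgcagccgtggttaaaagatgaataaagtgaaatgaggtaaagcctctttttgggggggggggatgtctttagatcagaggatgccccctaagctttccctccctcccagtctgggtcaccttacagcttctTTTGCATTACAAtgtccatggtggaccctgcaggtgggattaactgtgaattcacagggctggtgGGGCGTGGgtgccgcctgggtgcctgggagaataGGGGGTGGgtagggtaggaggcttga
The octamer-SOX match lay at positions -75 to -64 from the start, and 10 of 27025 genes with a RefSeq window (0.037%) held one. The KLF matches lay at -10 to -3 and at 24 to 31, and 19.7% of genes held at least one such match. A match describes the letters in this window and no binding was measured. The scanner files used here give neither the sequences of the probes nor their places in the transcript.

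The 75th percentile of the processed intensity was 309 to 485 units per array, and 49.4% to 63.2% of probes were well above background on each array. The arrays of 4OHT cells spread most around their group mean, with an SD over probes of 0.39 to 0.45 on the log2 scale, against 0.19 to 0.29 on the others. Slide 2 held the 3 arrays of MG132 with 4OHT and MG132 replicate 3, and slide 1 held the other 8 arrays. All 8 markers of embryonic stem cells were well above background on all 12 arrays, with a mean log2 level of the list between 3.16 and 3.26 for both compounds, between 4.53 and 4.59 for 4OHT, between 3.11 and 3.19 for MG132 and between 4.26 and 4.30 in untreated cells. Of these 8, limma called 6 lower with both compounds and 8 lower with MG132 than in untreated cells, and 2 higher with 4OHT. Of 10 primitive endoderm markers, 8 were well above background on all 12 arrays. The mean log2 level of the endoderm list lay between -2.27 and -1.27 for both compounds and between -2.72 and -1.36 for 4OHT. It lay between -2.12 and -1.58 for MG132 and between -2.41 and -1.25 in untreated cells. Of 10 feeder fibroblast markers, 5 were above background on all 12 arrays, and Col3a1 was on 1 and Postn on 3 of them. The mean log2 level of this list lay between -2.08 and -2.01 for both compounds, between -2.40 and -1.72 for 4OHT, between -2.99 and -2.77 for MG132 and between -3.44 and -3.21 in untreated cells. Members of the fibroblast list went both ways. Of 8 tested, 4 were higher and 1 lower with both compounds, 4 higher (S100a4, Thy1, Twist1 and Vim) and 1 lower (Pdgfrb) with 4OHT, and 2 higher and 1 lower (Vim) with MG132, each against untreated cells. Of 9 endoderm markers tested, 1 was higher with 4OHT (Foxa2), and 1 was higher and 1 lower with both compounds. Over all genes, 14% were higher and 14.7% lower with 4OHT, 24.1% and 18.9% with MG132 and 33.1% and 22.4% with both. The endoderm counts were thus not above the shares of all genes. The part of these 3 lists in the Nanog results was not tested.

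On the bright probe, processed intensity was 828, 771 and 691 in the 3 arrays of MG132 with 4OHT and 823, 1162 and 1526 in those of 4OHT. It was 2321, 2133 and 2197 with MG132 and 7794, 7987 and 6535 in untreated cells. The scanner put the error of every one of these spots at 10% of its value. Every treated array was below every untreated one, and the one overlap between groups was 4OHT replicate 1 with the arrays of both compounds. These intensities are not scaled between arrays, so the tests used log2 intensity minus each array's 75th percentile.

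On that normalized log2 scale the bright probe averaged 0.95 ± 0.05 with both compounds, 1.54 ± 0.29 with 4OHT, 2.39 ± 0.05 with MG132 and 3.97 ± 0.11 in untreated cells (SD, n = 3 each). The order was untreated, MG132, 4OHT and both compounds, from high to low, and no 2 groups overlapped once scaled. As a share of the untreated level this was 12.4% with both compounds, 18.6% with 4OHT and 33.7% with MG132. The step between MG132 and 4OHT was not among the comparisons tested.

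**Figure D1:**
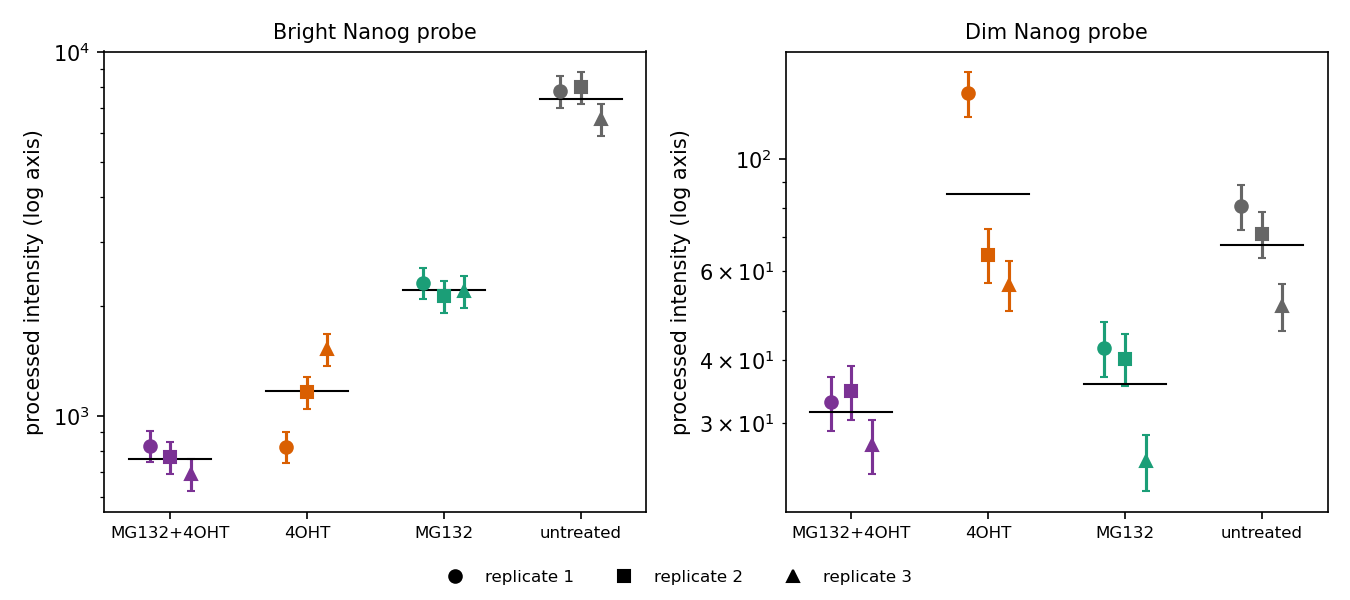
Processed intensity (log axes that differ between the panels) of the bright and the dim Nanog probe on each array, by group; points are arrays with the scanner's error for the spot and lines are group means of 3 arrays. The bright probe is lowest with both compounds, then 4OHT, then MG132, and highest in untreated cells, and the dim probe of 4OHT replicate 1 stands at 135 units above all others.

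4OHT for 6 h against untreated cells asks what the 4OHT-driven change does to Nanog while the proteasome works. The bright probe fell 5.38-fold (-2.43 ± 0.13, log2 ± SE, limma adjusted p = 1.6e-06), with a 95% interval of -2.72 to -2.13. A probe counts as called when its limma p, adjusted over all 34328 probes tested, is under 0.05. Of the 2 Nanog probes, 1 was called lower, against 14.7% of all probes tested (29% were called in either direction), and 173 probes (0.504%) had a lower change than the bright probe. The dim probe differed by 0.53 ± 0.41 (limma adjusted p = 0.37), with an interval of -0.38 to 1.43, and its groups overlapped.

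MG132 against untreated cells asks what inhibition of the proteasome does on its own. The bright probe fell 2.97-fold (-1.57 ± 0.13, limma adjusted p = 1.5e-05), with an interval of -1.87 to -1.27. Again 1 of the 2 probes was called lower, against 19.8% of probes (42.6% in either direction), and 1.24% of probes had a lower change. The dim probe differed by -0.75 ± 0.41 (limma adjusted p = 0.17, interval -1.66 to 0.15), although its 3 MG132 arrays lay below all 3 untreated arrays. The comparisons with untreated cells share those 3 arrays.

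4OHT under MG132, against MG132 alone, asks whether Nanog still responds when the proteasome is inhibited. The bright probe fell 2.72-fold (-1.45 ± 0.13, limma adjusted p = 9.7e-05), with an interval of -1.74 to -1.15. Of the 2 probes, 1 was called lower, against 12.6% of probes (26.1% in either direction). Within slide 2, a setting added after seeing the data, the value was -1.40, but MG132 replicate 3 was the only MG132 array there, so the spread of that group is not in it and no test is given. The dim probe differed by -0.06 ± 0.41 (limma adjusted p = 0.93, interval -0.97 to 0.85), and its groups overlapped.

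Both compounds against 4OHT alone was the comparison in which both Nanog probes were called lower, against 22.2% of probes (49.9% in either direction). The bright probe was 1.5-fold lower (-0.59 ± 0.13, limma adjusted p = 0.0044, interval -0.89 to -0.29), and 16.4% of probes had a lower change. The dim probe was 2.54-fold lower (-1.34 ± 0.41, limma adjusted p = 0.019). These groups lie on different slides, linked only by the MG132 arrays. With slide as a block the bright probe was at -0.52 (limma adjusted p = 0.18) and the dim probe at -0.58 (limma adjusted p = 0.62), so neither call held.

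Both compounds against untreated cells gave the lowest mean Nanog level of the 4 groups on either probe. On the dim probe that mean was -3.65 on the normalized log2 scale, close to -3.59 with MG132 alone, and these 2 groups overlapped. The bright probe fell 8.09-fold (-3.02 ± 0.13, limma adjusted p = 2e-07, interval -3.31 to -2.72), and only 50 of 34328 probes (0.146%) had a lower change. Of the 2 probes, 1 was called lower, against 23.5% of probes (54.9% in either direction). The dim probe differed by -0.81 ± 0.41 (limma adjusted p = 0.12, interval -1.72 to 0.09), with groups that did not overlap, and by -0.05 with slide as a block (limma adjusted p = 0.97). The groups lie on different slides, and with that block the bright probe was at -2.94 (limma adjusted p = 0.00019).

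The 4OHT response itself differed with MG132. The fall of the bright probe was 0.98 ± 0.19 smaller on the log2 scale under MG132 than without it (limma adjusted p = 0.014, interval 0.56 to 1.40), a difference called higher in 2.74% of probes and in either direction in 6.21%, with 95.1% of probes below this value. The single changes for 4OHT and MG132 add to -4.00, which would leave 6.26% of the untreated level, whereas both compounds together measured -3.02, or 12.4%. With slide as a block the difference was 1.03 (limma adjusted p = 0.062) and lost its call. On the dim probe it was -0.59 ± 0.58 (limma adjusted p = 0.61).

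**Figure D2:**
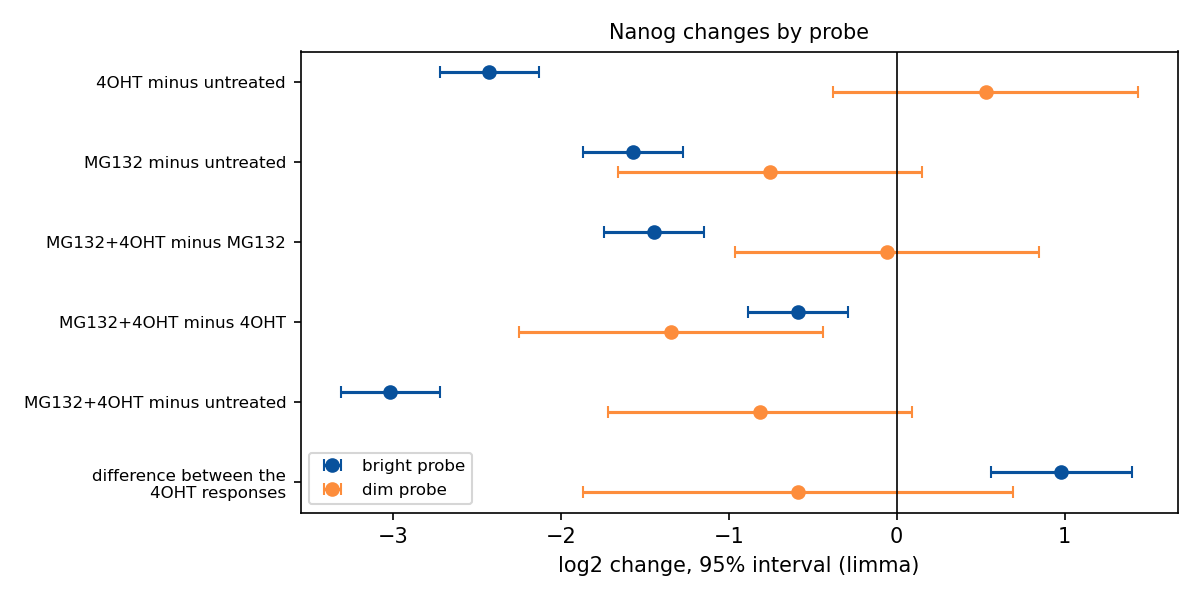
Log2 change of the bright and the dim Nanog probe in each comparison, with 95% intervals from limma over 12 arrays. The intervals of the bright probe lie below 0 in the first 5 comparisons and above 0 for the difference between the 4OHT responses, and those of the dim probe cross 0 in all but both compounds against 4OHT.

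The dim probe had processed intensities of 33.0, 34.7 and 27.1 with both compounds and 135, 64.8 and 56.4 with 4OHT. It had 42.3, 40.3 and 25.2 with MG132 and 80.8, 71.2 and 51.2 in untreated cells, with spot errors of 10.1% to 12.7%. The arrays with MG132, alone or with 4OHT, were all lower than those without it, and 4OHT replicate 1 was the highest of the 12. Its normalized log2 level was -3.65 ± 0.12 with both compounds, -2.31 ± 0.96 with 4OHT, -3.59 ± 0.44 with MG132 and -2.84 ± 0.30 in untreated cells (SD, n = 3 each). Without 4OHT replicate 1 the change for 4OHT against untreated cells was -0.03 (limma adjusted p = 0.95), and that for MG132 against untreated cells kept its value of -0.75 and was called (limma adjusted p = 0.018).

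The surroundings of the 2 spots differed. The scanner marked the local background of the dim spot as an outlier on 11 of 12 arrays and that of the bright spot on none. The pixel SD of the dim spot's background was 437 on 4OHT replicate 1, the array with the outlying value, and 24.9 to 49.3 on the others. One of the 6 adjacent spots, a probe named only by a genomic interval, gave 19640, 19080 and 18500 units with both compounds and 21590, 42450 and 39790 with 4OHT. The same spot gave 19170, 16360 and 23650 units with MG132 and 42130, 42040 and 41160 in untreated cells. It was thus low on all arrays with MG132, as the dim Nanog spot was, and on 4OHT replicate 1, where the dim spot was at its highest. The brightest spot next to the bright Nanog probe was Fasn, at 15000 to 22400 units on the 12 arrays. The part of these surroundings in the values of the dim probe was not tested.

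The probes did not follow the treatments alike, but the signal of the dim probe was low. After background subtraction it gave 25.2 to 135 units, where its local background was 30 to 61. The bright probe gave 691 to 7987 units, with a local background of 25 to 34. The part of the low signal in the difference between the probes was not tested. The bright value minus the dim value, taken within each array on the log2 scale, was 4.60 ± 0.11 with both compounds, 3.84 ± 1.11 with 4OHT, 5.98 ± 0.40 with MG132 and 6.80 ± 0.20 in untreated cells (SD, n = 3 each). The groups differed in an exact permutation test over the 12 arrays (p = 0.00032, 1 probe pair, 15400 partitions, smallest possible p 6.5e-05). The untreated and MG132 arrays did not overlap with those of either 4OHT group, whereas the 4OHT arrays, at 2.61 to 4.76, spanned those with both compounds, at 4.47 to 4.67. Nanog is therefore given by probe, and comparisons with other genes below use the bright one.

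**Figure D3:**
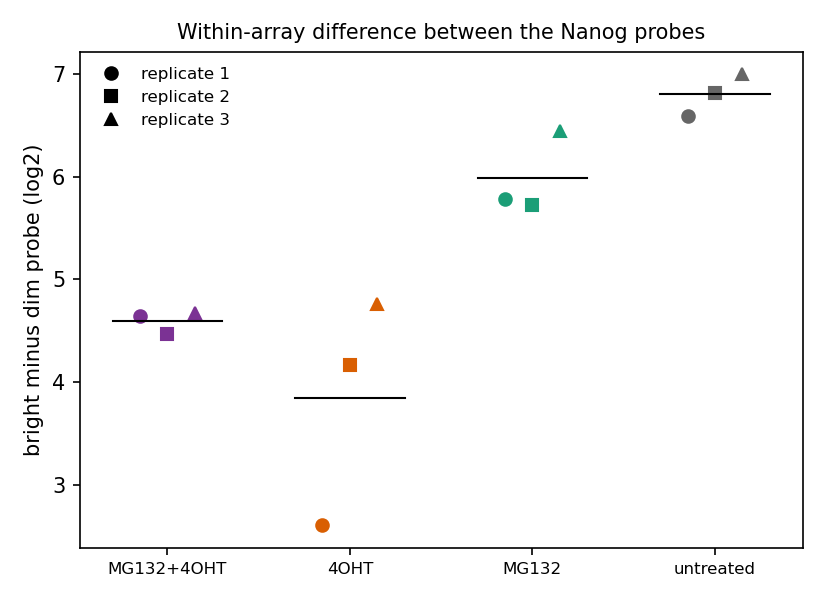
Bright minus dim Nanog probe within each array (log2), by group, with points for arrays and lines for means of 3 arrays. The difference spans 2.61 to 4.76 with 4OHT, where replicate 1 is the lowest, and averages 6.80 in untreated cells.

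Arrays numbered replicate 3 differed from the others in 9.66% of probes. On the bright Nanog probe they differed by 0.04 ± 0.10 (limma adjusted p = 0.84) and on the dim probe by -0.58 ± 0.26 (limma adjusted p = 0.21).

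Of 24 genes whose products act on Nanog transcription, 12 were lower and 3 higher with 4OHT than in untreated cells, against 14.7% and 14% of 26837 genes, with a median of -0.30 against 0.03 over all genes. With MG132, 15 were lower and 0 higher by limma (also 0 at an unadjusted p under 0.05), against 18.9% and 24.1% of genes, with a median of -0.44 against 0.07. With both compounds, 18 were lower and 1 higher than in untreated cells, against 22.4% and 33.1% of genes, with a median of -1.01 against 0.19. In each treatment the share of regulators that were lower was above that of all genes.

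The genes of the factors that bind the octamer-SOX element were called lower with MG132 and were not called with 4OHT, and the difference between these treatments was not tested. Pou5f1, which encodes OCT4, differed by 0.02 ± 0.15 with 4OHT (limma adjusted p = 0.95) and fell by 0.46 with MG132 (limma adjusted p = 0.032, and 0.072 with quantile normalization). Sox2 differed by 0.27 ± 0.10 with 4OHT (limma adjusted p = 0.059) and fell by 0.99 with MG132 (limma adjusted p = 3.3e-05) and by 1.32 with both (limma adjusted p = 3e-06). The bright Nanog probe was called lower with 4OHT, where neither gene was called.

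Among the Kruppel-like factors, Klf4 changed by -2.39 with 4OHT (limma adjusted p = 0.00016), -1.27 with MG132 and -2.51 with both compounds. Klf2 changed by -1.31, -1.66 and -2.96 in the same order of treatments, each called. Klf5 rose by 0.79 with 4OHT (limma adjusted p = 0.0053) and fell by 0.84 with MG132 (limma adjusted p = 0.0024). The 3 KLF genes thus did not share one direction with 4OHT.

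Several other activators were lower with 4OHT. Esrrb, an orphan nuclear receptor, changed by -1.01 with 4OHT and -1.27 with both compounds, and by -0.43 with MG132 (limma adjusted p = 0.027, and 0.11 with quantile normalization). Tbx3, a T-box factor, changed by -1.93 with 4OHT (limma adjusted p = 0.00076), -1.23 with both compounds (limma adjusted p = 0.0048) and -0.35 with MG132 (limma adjusted p = 0.37). Smad3, an effector of activin and Nodal, changed by -1.94 with 4OHT, -1.37 with both and 0.03 with MG132 (limma adjusted p = 0.96). Prdm14, which restrains FGF signalling in these cells, changed by -1.06, -0.77 and -1.03 with 4OHT, MG132 and both compounds. The difference between the 4OHT responses was called higher in 1 of the 24 regulators and lower in 3, against 2.88% and 3.54% of genes. The higher count is near the share of all genes. It was Prdm14 (0.80, limma adjusted p = 0.018), in the direction of the bright Nanog probe. The 3 lower ones went the other way, and their number was 4, 2 and 1 with normexp, quantile and median scaling. These 3 were Sox2 (-0.61, limma adjusted p = 0.028), Nr5a2, a nuclear receptor (-1.37, limma adjusted p = 0.043), and Foxd3 (-1.81, limma adjusted p = 0.01), and the calls of Sox2 and Nr5a2 were lost with median centring (limma adjusted p = 0.098 and 0.078).

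Of the repressors, Tcf7l1, the Wnt pathway factor that restrains Nanog, changed by -1.38 with both compounds (limma adjusted p = 1.8e-05) and by -0.80 with 4OHT (limma adjusted p = 0.0014). Nr6a1, a nuclear receptor that silences pluripotency genes on differentiation, rose by 1.34 with 4OHT (limma adjusted p = 4.4e-05) and by 0.80 with both compounds (limma adjusted p = 0.00047). With MG132, Nr6a1 changed by -0.28 (limma adjusted p = 0.11). Zfp281, a zinc finger factor that limits Nanog expression, rose by 0.65 with 4OHT and fell by 0.56 with MG132. Trp53, which encodes p53 and can repress Nanog, changed by -0.17 with 4OHT (limma adjusted p = 0.41), -0.30 with MG132 (limma adjusted p = 0.11) and -0.58 with both (limma adjusted p = 0.0054). Repressors of Nanog thus changed in both directions.

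Of 5 genes that act on NANOG protein stability, 1 was lower with 4OHT, 2 were lower with MG132 and 3 were lower with both compounds, each against untreated cells. The shares of all genes that were lower were 14.7%, 18.9% and 22.4% in that order. Usp21, a deubiquitinase that stabilises NANOG, changed by -0.39, -0.49 and -0.52 with 4OHT, MG132 and both compounds (limma adjusted p = 0.027, 0.0063 and 0.0031). Mapk3, which encodes ERK1, fell by 0.96 with MG132 (limma adjusted p = 0.00015) and by 1.14 with both, and differed by -0.10 with 4OHT (limma adjusted p = 0.59). Fbxw8, a ubiquitin ligase subunit reported to act on NANOG, was not called, with changes of -0.14, 0.02 and 0.00 in the 3 treatments.

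Of 14 genes described as NANOG targets, 7 were lower and 1 higher with 4OHT, 9 lower and 1 higher with MG132, and 11 lower and 2 higher with both compounds, each against untreated cells. Esrrb, Klf4, Tbx3 and Foxd3 are also among the regulators above, so the lists overlap and their counts are not separate results. Of all genes, 14.7% were lower and 14% higher with 4OHT, 18.9% and 24.1% with MG132 and 22.4% and 33.1% with both. The medians of the targets were -0.97, -0.83 and -1.70 in that order, against 0.03, 0.07 and 0.19 over all genes. Lefty1, a secreted Nodal inhibitor, changed by -6.10 with 4OHT, -3.99 with MG132 and -4.21 with both compounds, and Lefty2 by -2.20, -2.51 and -2.72. Fgf4, the growth factor that stem cells secrete to drive ERK signalling, changed by -1.55, -0.89 and -2.15 with the same treatments. Nr0b1, which encodes DAX1, rose by 0.76 with 4OHT, by 1.32 with both compounds and by 0.55 with MG132 (limma adjusted p = 0.0019, and 0.19 with median centring). Gata6, the primitive endoderm factor that NANOG represses, was not called, with changes of 0.52 with 4OHT (limma adjusted p = 0.48), 0.00 with MG132 and 0.68 with both (limma adjusted p = 0.26). Zfp42, a marker of the undifferentiated state also known as Rex1, changed by 0.01 with 4OHT (limma adjusted p = 0.98) and fell by 0.86 with MG132 and by 0.90 with both.

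The difference between the 4OHT responses was called in 3 targets as higher and in 2 as lower, against 2.88% and 3.54% of genes. Lefty2 had a difference of 1.99 (limma adjusted p = 0.0038), Lefty1 of 5.88 (limma adjusted p = 0.0024) and Id3, a target of BMP signalling, of 2.17 (limma adjusted p = 0.014). Foxd3, a forkhead factor of pluripotent cells, had a difference of -1.81 (limma adjusted p = 0.01), and Otx2, a factor of the formative and primed epiblast, of -1.03 (limma adjusted p = 0.024, and 0.06 with median centring). Bright Nanog, Lefty1, Lefty2 and Id3 thus had differences above 0, and Foxd3 and Otx2 below 0. The same sign covered unlike changes. Without and then with MG132, the 4OHT change was -6.10 and -0.21 for Lefty1 and -2.20 and -0.21 for Lefty2. These were smaller falls, as for bright Nanog. Id3 instead went from -0.40 (limma adjusted p = 0.35) to a rise of 1.77 (limma adjusted p = 0.002). Foxd3 went from 0.08 to -1.73 and Otx2 from 0.27 to -0.76.

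In GRCm38.p6 Nanog lies on chromosome 6 among other genes expressed in pluripotent cells. Of the 10 protein-coding genes on each side, 12 of 20 were tested. With 4OHT 2 of the 12 were higher and 2 lower than in untreated cells, with MG132 4 were higher and 4 lower, and with both compounds 4 were higher and 5 lower. As shares these are close to those of all genes with 4OHT (14% higher and 14.7% lower) and, for genes that were higher, with both compounds (33.1%). Both counts with MG132 were above the shares of all genes (24.1% higher and 18.9% lower), as was the lower count with both compounds (22.4%). These differences in share, over 12 genes, were not tested. Gdf3, a Nodal-related ligand, changed by -0.54 with 4OHT (limma adjusted p = 0.0049), -1.71 with MG132 (limma adjusted p = 3.4e-06) and -2.27 with both. Dppa3, the adjacent gene, which encodes a maternal factor also found in stem cells, changed by -1.05 with 4OHT (limma adjusted p = 0.074), -1.62 with MG132 (limma adjusted p = 0.0079) and -2.23 with both (limma adjusted p = 9e-04). For both genes the MG132 value was the larger of the 2 single treatments, where for bright Nanog it was the smaller, though the gene-to-gene difference was not tested.

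Phc1, a Polycomb subunit, changed by -0.18 with 4OHT (limma adjusted p = 0.33), -1.03 with MG132 and -1.39 with both compounds. Slc2a3, which encodes a glucose transporter and lies next to Nanog on the other side, changed by 0.06 with 4OHT (limma adjusted p = 0.79), -0.44 with MG132 (limma adjusted p = 0.019, and 0.16 with quantile normalization) and -0.60 with both. Apobec1, a cytidine deaminase, rose by 2.24 with MG132 (limma adjusted p = 1.2e-06) and by 2.02 with both, and fell by 0.56 with 4OHT (limma adjusted p = 0.0059). Phc1 and Apobec1 thus changed in opposite directions with MG132.

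**Figure D4:**
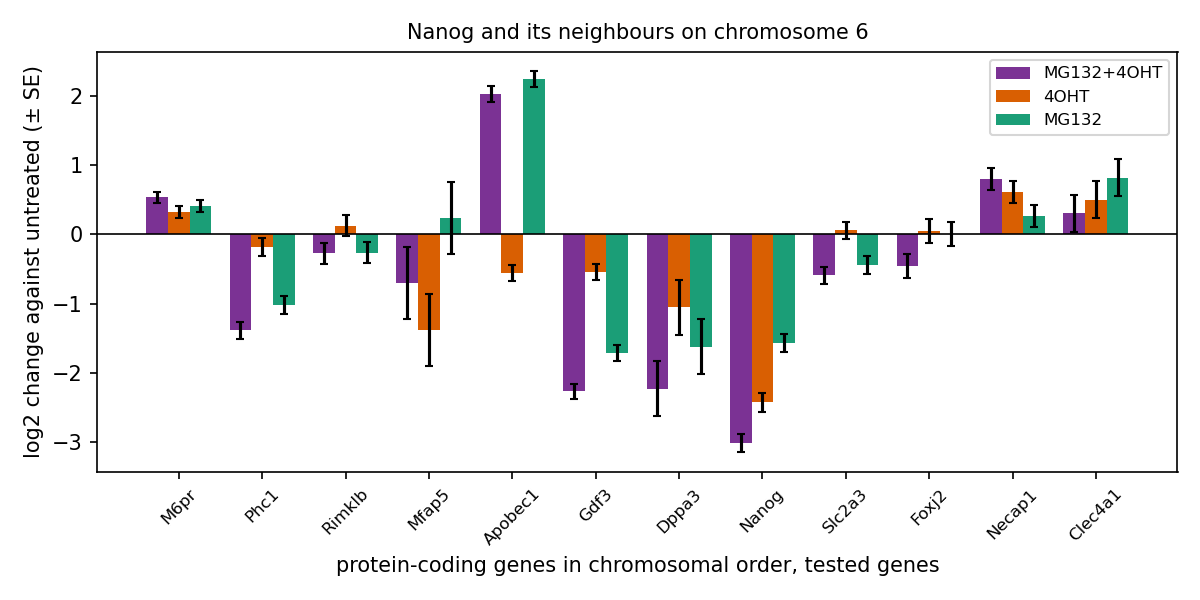
Log2 change against untreated cells, with its SE, of Nanog and 11 of its tested neighbours in chromosomal order, for both compounds, 4OHT and MG132. Apobec1 stands above 0 with MG132 while Gdf3, Dppa3 and Phc1 stand below it, and Nanog has the lowest value with both compounds.

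The genes whose level moved most like the bright Nanog probe were found by Pearson's r over the 12 arrays among 13146 genes with a symbol that were well above background on all of them. These correlations describe shared arrays and treatments and carry no test. Kit, the receptor of stem cell factor, had the highest r, at 0.993. Its normalized log2 level was 1.21, 1.17 and 1.07 with both compounds, 1.73, 1.52 and 1.84 with 4OHT, 2.12, 2.19 and 2.30 with MG132 and 3.25, 3.24 and 3.18 in untreated cells. Kit had the same order of groups as Nanog, with no overlap, and smaller steps of -1.52 with 4OHT, -1.02 with MG132 and -2.07 with both. Btbd2, a BTB domain gene, followed with r = 0.991, then Smarcd3, a chromatin remodelling subunit (0.99), 0610009L18Rik (0.99) and Creb3l4, a bZIP factor (0.989). Mc5r, a melanocortin receptor (0.988), Camkv, a kinase-like vesicle protein (0.988), and Pga5, a pepsinogen (0.987), completed the first 8.

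The most opposite patterns were those of Itga7, an integrin subunit (r = -0.992), Aebp1 (-0.991), Gpr132, a G protein-coupled receptor (-0.991), and Ptprn (-0.989). Itga7 rose by 3.02 with 4OHT, by 2.28 with MG132 and by 3.98 with both compounds, each called by limma. Gpr132 rose by 4.12, 2.78 and 4.76 in the same order. Its level in untreated cells was low, at -5.13 on the normalized log2 scale, so the size of these rises depended on the background correction. With normexp the rise was 2.01 with 4OHT and 1.04 with MG132 (limma adjusted p = 6.7e-06 and 0.00077). Itga7 and Gpr132 were lowest in untreated cells, where Nanog was highest. They were picked for an opposite pattern on these same arrays, so this is not a separate result.

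By the size of the 3 changes against untreated cells, the closest gene was Mc5r, with a root mean square distance of 0.26 and changes of -2.26 with 4OHT, -1.17 with MG132 and -2.88 with both. Elf3, an ETS factor (0.32), Klf4 (0.34), Slc52a3, a riboflavin transporter (0.36), and Zcchc18 (0.37) came next. Klf4 had levels of 4.03, 3.95 and 3.85 with both compounds, 3.39, 3.96 and 4.83 with 4OHT, 5.27, 5.15 and 5.12 with MG132 and 6.55, 6.54 and 6.27 in untreated cells. The Klf4 arrays of both compounds and of 4OHT overlapped, unlike those of the bright Nanog probe after scaling. Both compounds against 4OHT gave Klf4 a change of -0.12 (limma adjusted p = 0.75).

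**Figure D5:**
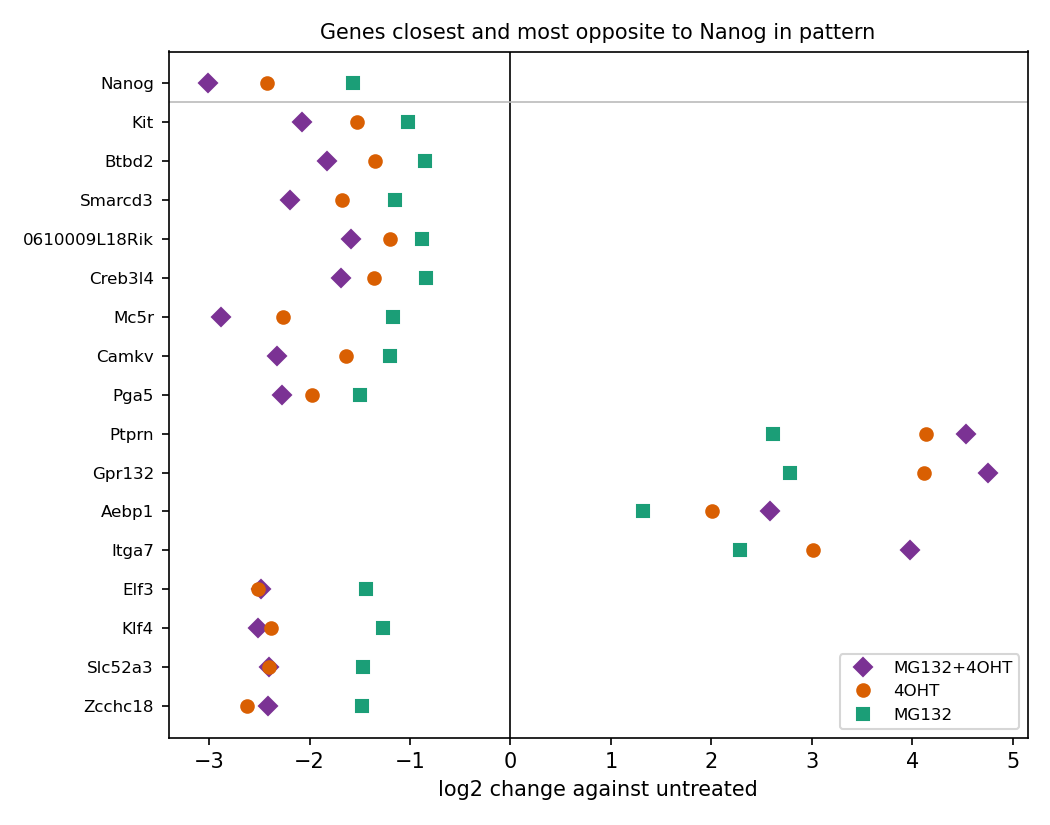
Log2 change against untreated cells for both compounds, 4OHT and MG132, for Nanog (top row), the 8 genes with the highest r, the 4 with the lowest and the genes with the closest changes. Kit and the others with high r keep the Nanog order at smaller sizes, and Elf3, Klf4, Slc52a3 and Zcchc18 match its 4OHT and MG132 values but have both compounds close to 4OHT.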

How the data were processed

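Total RNA (100 ng per sample) of mouse embryonic stem cells was labelled with Cy3 and hybridised to 1-colour Agilent arrays, per the labels' protocols. The 12 samples fall into 4 groups of 3 by title and treatment, which the series describes as biological replicates with no word on separate cultures, so p-values cover the spread between arrays, part of which may be technical. The authors deposited processed intensity values from Feature Extraction 11.0.1.1, background-subtracted and detrended within each array, per the file headers. The series-wide values the authors deposited were the same intensity (largest difference 0).

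Control spots (3671 of 62976) and outlier-flagged spots were left out, and spots of one probe were averaged. The log2 intensity minus each array's 75th percentile was fitted with limma 3.58.1 (R 4.3.3), as group means across the 12 arrays (8 residual and 2.09 prior degrees of freedom). A probe entered if some group had every array well above background (34328 probes), with Benjamini-Hochberg adjustment over them and a threshold of 0.05. Changes are log2 with SE. In lists, a gene is its probe with the highest mean, and accessions were matched without versions to RefSeq symbols of GRCm38.p6 (32994 probes). The array design names an older build, so its coordinates were not used. Named genes were the called list members with the largest changes or those with a stated role, tested neighbours, and the genes closest in pattern. The members, lists and tests were chosen with earlier results of these data known. The fit was tested on simulated data. The number of arrays limits the precision. Alternatives were normexp, quantile and median scaling, other filters, an intensity trend, slide and replicate blocks, only the arrays compared, and leaving out each array. Same-numbered arrays of different groups correlated in their deviations at -0.05 to 0.15, 0.07 to 0.16 and 0.13 to 0.40 for replicates 1, 2 and 3. All pairs of replicates 2 and 3 were thus positive, and those of replicate 3 shared the most. The series names no pairing by number, so the main fit left arrays unpaired, with the replicate block as an alternative. Results of a small number of list members and neighbours are not reported here.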

Additional observations from a re-analysis of the deposited data

Results flagged for a closer look

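The response of the bright Nanog probe to 4OHT differed between cells with and without MG132 by 0.98 on the log2 scale, by the limma test of that difference (adjusted p = 0.014). The call was lost with slide as a block (1.03, limma adjusted p = 0.062) and with slide and replicate blocks (1.08, limma adjusted p = 0.1). It held when each array was left out in turn (0.88 to 1.15). No outlier test on single arrays was run, since the groups hold 3 arrays each.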

How the results depend on the processing

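Some alternatives could not change the value of a comparison. The series-wide intensities were the same as those used. Filters, only the arrays compared, and leaving out an array of a group not compared alter at most the p. For the bright probe, 146 of 150 alternative values kept their direction and their side of the threshold. The exceptions were with slide as a block and with slide and replicate number as blocks: both compounds against 4OHT gave -0.52 and -0.44 (limma adjusted p = 0.18 and 0.36), and the difference between the 4OHT responses gave 1.03 and 1.08 (limma adjusted p = 0.062 and 0.1). With the replicate block alone no call of either Nanog probe changed, for example -2.43 (limma adjusted p = 1.8e-05) for the bright probe with 4OHT. Leaving out each array gave the bright probe -2.59 to -2.32 for 4OHT, -1.63 to -1.53 for MG132, -1.47 to -1.42 for 4OHT under MG132, -0.69 to -0.42 for both compounds against 4OHT, -3.08 to -2.98 for both against untreated cells and 0.88 to 1.15 for the difference, all called. The exact p of the probe difference was 0.00065 with normexp and 6.5e-05 to 0.0013 leaving out each array.

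For the dim probe, 127 of 144 values kept direction and side. Leaving out each array gave -0.026 to 0.82 for 4OHT, -0.92 to -0.50 for MG132, -0.32 to 0.07 for 4OHT under MG132, -1.63 to -0.79 for both against 4OHT, where it lost its call without replicate 3 of both compounds (-1.28, limma adjusted p = 0.056), and -0.98 to -0.69 for both against untreated cells. That last change was called without 4OHT replicate 1 (-0.81, limma adjusted p = 0.0098). Median centring called the MG132 change (-1.09, limma adjusted p = 0.036), and it and quantile normalization called both compounds against untreated cells (-1.22 and -1.18), a change that was -0.20 with normexp, -0.05 with slide as a block and -0.56 with slide and replicate blocks (limma adjusted p = 0.37, 0.97 and 0.62). For 4OHT under MG132 the value turned to 0.069 with normexp, 0.45 both with the slide block and in slide 2 alone, 0.11 with slide and replicate blocks, and 0.064 or 0.073 without MG132 replicate 1 or 2. For both compounds against 4OHT it was -0.58 with slide as a block, -1.09 with slide and replicate blocks and -1.34 with only the arrays compared (limma adjusted p = 0.62, 0.32 and 0.065). With only those arrays, both compounds against untreated cells kept -0.81 and was called (limma adjusted p = 0.0055). The main fit shares 1 spread over the 4 groups. For the dim probe the SD was 0.96 with 4OHT, against 0.12 with both compounds, 0.44 with MG132 and 0.30 in untreated cells. Comparisons without the 4OHT group thus still draw on the spread of its arrays. The cause of the shifts in value was not tested.

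Counts of called probes changed by over 1.5 times from 9964 to 18010 with no filter and 6374 with only the arrays compared (4OHT). With slide as a block, and with slide and replicate blocks, they were 3795 and 2846 of 8945 (4OHT under MG132, with 2767 within slide 2, where the lone MG132 array is assumed to vary like the others, and 5761 to 11473 leaving out each array), 6734 and 5933 of 17141 (both against 4OHT), 8820 and 7471 of 18833 (both against untreated) and 898 and 905 of 2131 (the difference, with 1182 to 3108 leaving out each array). Median centring moved the median of all probes to -0.13 with 4OHT, -0.29 with MG132 and -0.25 with both compounds, against 0.03, 0.05 and 0.16, and normexp to 0.16 with 4OHT. The share of calls that were higher was then 31.4%, 25.6% and 28.9% with median centring, 37.9%, 45.7% and 45.2% with quantile normalization and 69.1%, 54.8% and 65.2% with normexp, against 49.4%, 53.5% and 57.2%. Normexp was run on median signals, since no mean signal was among the columns used.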
